A study of Mus musculus with 1119 samples.

Results

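Melanocytes are the pigment cells of the hair follicle, and the 10 genes described here, Dct, Tyr, Tyrp1, Pmel, Mlana, Mitf, Sox10, Kit, Trpm1 and Gpr143, are the genes by which they are usually recognised. They were taken as a named list and looked up by symbol, and all 10 were found, each on exactly 1 of the 46609 rows that the 3 deposited tables share. Single cells of mouse back skin had been sorted into plates and sequenced with Smart-seq2, which copies whole transcripts, and each of the 1119 cells is a sample of its own. P30 hair bulb cells, which the authors call Ana6 matrix cells (TACs), came from Lhx2-GFP (CD1) mice of mixed sex and were sorted on Sca-1, CD34, Pcadherin, GFP and the integrins α6 and b1. They filled 5 plates, with 76 cells on plate P1-3, 78 on P1-4, 75 on P1-5, 74 on P1-6 and 81 on P2-1. The other cells were 39 telogen bulge stem cells and 71 telogen hair germ cells at P21, 89 Ana1 hair germ cells at P23 to P27 and Ana2 matrix cells at P25 to P27 on 3 plates of 55, 76 and 68 cells. These 4 types came from Lgr5-eGFPiresCreER;R26-tdTomato mice of mixed sex, sorted on tdTomato, GFP, CD34, Pcadherin and the same integrins. The dermal papilla cells at P30, on 4 plates of 87, 87, 86 and 77 cells, came from male K14-H2BGFP;LEF1-RFP mice, sorted on GFP, RFP, integrinα9 and CD117. CD117 is the protein made from Kit, and the labels do not say whether cells with or without it were kept, so the level of Kit in these cells and the gate cannot be told apart. Bulge and hair germ hold the resting stem and progenitor cells, the matrix is the dividing epithelium at the base of the growing follicle, and the dermal papilla is the mesenchymal core that the bulb encloses.

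In a growing follicle, melanocytes sit among the matrix cells around the dermal papilla, build melanosomes and hand these to the keratinocytes that form the hair shaft. Mitf and Sox10 encode transcription factors of the lineage, Tyr, Tyrp1 and Dct encode the melanin-making enzymes, Pmel encodes the fibre on which melanin is laid down, and Mlana and Gpr143 encode melanosome membrane proteins. Kit encodes the receptor for Kit ligand, on which melanocytes depend, and Trpm1 encodes an ion channel whose gene is a Mitf target. CD1 is an albino stock in which tyrosinase is inactive, so that pigment is not made although melanocytes are present. Mitf is also used outside the lineage, Kit marks mast cells as well, and Sox10 is shared with Schwann cells, the glia of skin nerves.

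The enzyme genes and Trpm1 are known Mitf targets, and Mitf binds an E-box with the core CATGTG, of which the M-box of the pigment genes is an extended form. The 250 bases before the annotated start of transcription, from RefSeq on GRCm38.p6, are therefore shown for these 4 genes and, for comparison, for Kit, whose cell-by-cell pattern differed from theirs. The sequences run 5′ to 3′ on the strand of the gene, and capitals mark TCATGTG or, for the same motif on the other strand, CACATGA.
Tyr, chr7:87493513-87493762, minus strand: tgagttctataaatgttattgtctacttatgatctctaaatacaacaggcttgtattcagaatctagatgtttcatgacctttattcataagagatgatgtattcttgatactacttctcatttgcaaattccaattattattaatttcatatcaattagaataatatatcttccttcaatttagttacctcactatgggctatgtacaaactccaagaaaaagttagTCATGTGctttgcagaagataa
Tyrp1, chr4:80833963-80834212, plus strand: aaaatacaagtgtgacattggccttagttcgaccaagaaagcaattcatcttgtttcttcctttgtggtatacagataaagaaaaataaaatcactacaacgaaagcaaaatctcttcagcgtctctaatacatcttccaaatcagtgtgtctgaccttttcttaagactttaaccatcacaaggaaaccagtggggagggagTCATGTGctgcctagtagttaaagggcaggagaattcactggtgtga
Dct, chr14:118052247-118052496, minus strand: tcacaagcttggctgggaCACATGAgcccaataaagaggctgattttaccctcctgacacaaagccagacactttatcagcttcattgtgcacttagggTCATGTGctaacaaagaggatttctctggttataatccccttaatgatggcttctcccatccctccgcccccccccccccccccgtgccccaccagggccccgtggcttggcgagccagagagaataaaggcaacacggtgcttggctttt
Trpm1, chr7:64153585-64153834, plus strand: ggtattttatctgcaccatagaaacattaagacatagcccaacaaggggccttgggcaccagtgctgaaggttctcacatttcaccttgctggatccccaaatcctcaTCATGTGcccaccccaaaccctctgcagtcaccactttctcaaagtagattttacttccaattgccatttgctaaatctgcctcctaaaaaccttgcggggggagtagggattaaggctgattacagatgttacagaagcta
Kit, chr5:75574737-75574986, plus strand: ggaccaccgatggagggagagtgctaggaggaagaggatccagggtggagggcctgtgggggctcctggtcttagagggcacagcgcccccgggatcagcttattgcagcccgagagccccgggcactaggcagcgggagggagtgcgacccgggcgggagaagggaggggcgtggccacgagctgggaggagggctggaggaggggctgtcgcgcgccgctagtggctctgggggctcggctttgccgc
The motif began 22 bases before the start of Tyr and 47 bases before that of Tyrp1, in both cases inside the 11-base M-box AGTCATGTGCT. In Dct it lay farther from the start, at chr14:118052391-118052397 and, on the other strand, at chr14:118052472-118052478, and in Trpm1 at chr7:64153693-64153699. Counted on both strands, TCATGTG was present in 3.25% of all 32851 such windows, the shorter CATGTG, which every TCATGTG contains, in 12.3%, and the 11-base form in 7 windows. Of the 10 genes, 6 had an entry, with 10 windows in all, and 4 of the 6 held TCATGTG. The 2 windows of Kit, the 3 of Mitf and a second window of Trpm1 did not hold these letters. A match is a description of the letters only.

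All 10 are protein-coding genes, and on GRCm38 (GENCODE M21) Dct lies at chr14:118012790-118052244, Tyr at chr7:87424771-87493512, Tyrp1 at chr4:80834123-80851719, Pmel at chr10:128704195-128720238 and Mlana at chr19:29697824-29708634. Mitf lies at chr6:97807052-98021349, Sox10 at chr15:79154908-79165240, Kit at chr5:75574916-75656722, Trpm1 at chr7:64153835-64269775 and Gpr143 at chrX:152781921-152808646. These starts are not always those of the RefSeq windows above. The Tyrp1 motif, at chr4:80834166-80834172, lies inside the gene as placed here, and the Kit window shown runs past the start of Kit. Smart-seq2 does not mark strand, so reads in stretches that a gene shares with another cannot be assigned by strand. Pmel shares 837 bases with Cdk2 and a shorter stretch with Dgka, both on the opposite strand, and Dct shares 1891 bases with the antisense gene 4930435M08Rik. Over hair bulb cells the Pearson r of Pmel was 0.38 with Cdk2 and 0.19 with Dgka.

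Values are TPM, transcript abundances that are scaled for transcript length and to a fixed total in every cell, so levels can be set side by side between genes. TPM keeps no read depth, so the depth behind a value is unknown. A gene counts as seen in a cell at a TPM of 1 or more. Cells of a type are not replicates: they share mice, sort and plates, each type counts as 1 sample, and no test of a difference between types is given. Mouse line, sorting scheme, plate and deposited table differ together between P30 hair bulb cells and every other type and cannot be told apart, and age differs as well from every type but the dermal papilla. Shares of cells carry exact Clopper-Pearson 95% intervals, which cover the counting of cells only. A median of 7392.5 genes was seen in P30 hair bulb cells, against medians of 5516 to 6703 in the other 5 types. Ribosomal RNA and mitochondrial rows took a median of 76.96% of the TPM total in P30 hair bulb cells, against 54.6% to 68.8% in the other types, and spike-in rows took 0.709%, against 4.62% to 14.4%. No 2 cells held the same values in every row.

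Of the 10 genes, 9 had their highest mean TPM in P30 hair bulb cells, and the exception was Mitf. Among the 20951 genes compared in the same way, 12.4% had their highest mean there. The heat map of shares and means by cell type shows the contrast between the hair bulb column and the rest. Outside the hair bulb, Tyr was seen often but at low TPM, Mitf was seen in every type, and the remaining 8 genes were rare or listed at 0.

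**Figure D1:**
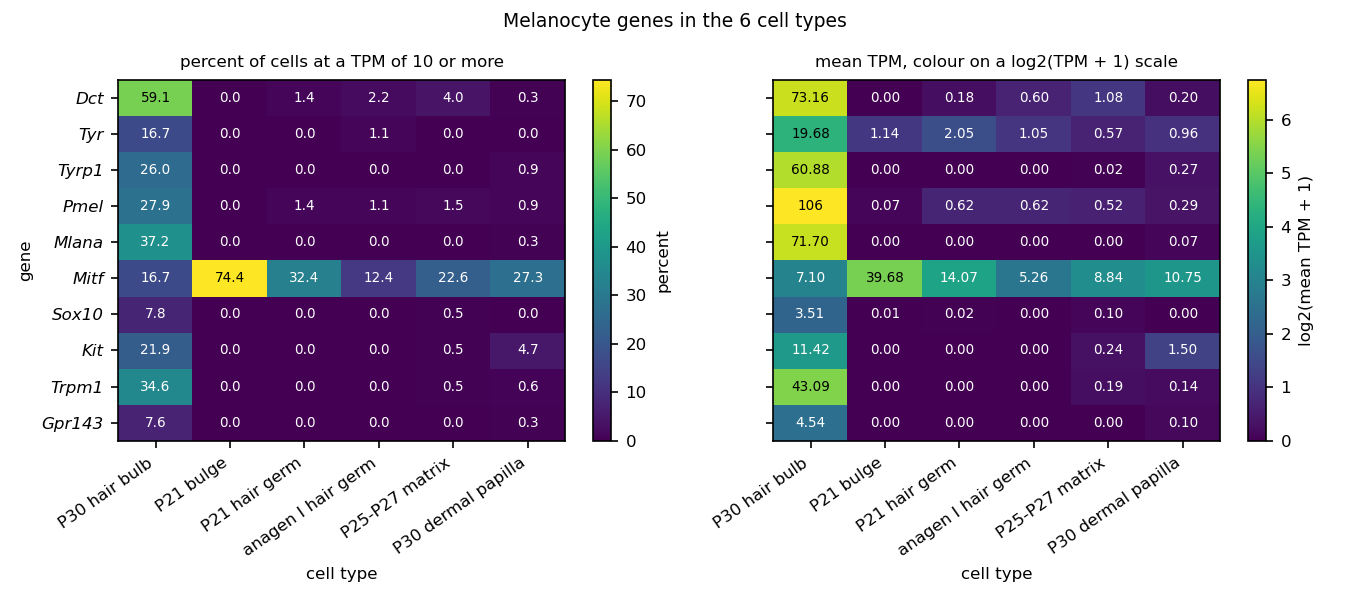
Percent of the cells of a type in which a gene reached 10 TPM (left) and mean TPM (right, colour on a log2 scale) of the 10 genes in the 6 cell types. P30 hair bulb cells hold the highest mean of every gene except Mitf, whose mean is highest in P21 bulge cells at 39.7 TPM.

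Among the melanin-making enzymes, Dct was the most widespread. It was seen in 74.7% of P30 hair bulb cells (95% interval 70.1% to 79.01%), with a lowest TPM of 0, a median of 14.4 and a highest of 3801. In the other types it was seen in 0 of 39 P21 bulge cells, for which 3 cells of the total, the limit set here for a count of 0, allow a share of up to 7.69%, in 1 of 71 P21 hair germ cells, in 5 of 89 Ana1 hair germ cells, in 20 P25-P27 matrix cells (10.1%) and in 13 dermal papilla cells (3.86%). The highest of these cells reached 31.9 TPM, in the P25-P27 matrix. Dct encodes dopachrome tautomerase, which acts downstream of tyrosinase.

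Tyr, the gene of the rate-limiting enzyme, was seen in 63.3% of P30 hair bulb cells (58.2% to 68.1%), with a lowest TPM of 0, a median of 1.83 and a highest of 1037. Most of these values were small: 64 of these cells, 16.7% of all hair bulb cells, reached a TPM of 10. Low values of Tyr were also common in the other types, in 41.03% of P21 bulge cells, 61.97% of P21 hair germ cells, 26.97% of Ana1 hair germ cells, 21.1% of P25-P27 matrix cells and 36.2% of dermal papilla cells. At a TPM of 10, however, those types held 1 cell in all, an Ana1 hair germ cell at 39.7 TPM, and the highest P21 hair germ cell stood at 9.34 TPM. This held for the deposited scale. With ribosomal RNA, mitochondrial and spike-in rows left out and each cell rescaled to the same total, Tyr reached 10 in 45.6% of P30 hair bulb cells, against 7.69% of P21 bulge, 23.9% of P21 hair germ, 3.37% of Ana1 hair germ, 4.02% of P25-P27 matrix and 11.6% of dermal papilla cells.

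Tyrp1, which encodes a tyrosinase-related enzyme, was seen in 39.8% of P30 hair bulb cells (34.9% to 44.9%), with a lowest and a median TPM of 0 and a highest of 3647. It was seen in 1 P25-P27 matrix cell, at 4.20 TPM, and in 8 dermal papilla cells (2.37%), the highest at 25.6 TPM. All P21 bulge, P21 hair germ and Ana1 hair germ cells were listed at 0.

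Pmel had the highest mean of the 10 genes in P30 hair bulb cells, 105.9 TPM, and was seen in 41.9% of them (36.9% to 47.04%), with a lowest and a median TPM of 0 and a highest of 6293. In the other 5 types its mean lay between 0.0731 and 0.622 TPM and its highest cell at 45.2 TPM. Mlana was seen in 45.3% of P30 hair bulb cells (40.3% to 50.4%), with a lowest and a median TPM of 0 and a highest of 4034. Outside the hair bulb Mlana was seen in 3 dermal papilla cells, the highest at 14.1 TPM, and was listed at 0 in all cells of the other 4 types. Gpr143 was the rarest of the 10, seen in 11.5% of P30 hair bulb cells (44 cells, 8.45% to 15.1%) and reaching 290.8 TPM, and in 3 dermal papilla cells, the highest at 28.8 TPM. It too was listed at 0 in all cells of the other 4 types.

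Trpm1 was seen in 50.5% of P30 hair bulb cells (45.4% to 55.6%), with a lowest TPM of 0, a median of 1.17 and a highest of 1044. It was seen in 3 P25-P27 matrix cells and 6 dermal papilla cells and was listed at 0 in all cells of the other 3 types. Kit was seen in 32.8% of P30 hair bulb cells (28.1% to 37.8%), with a lowest and a median TPM of 0 and a highest of 187.95. It was seen in 1 P25-P27 matrix cell, at 46.8 TPM, and was listed at 0 in all P21 bulge, P21 hair germ and Ana1 hair germ cells.

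Dermal papilla cells, sorted with CD117 among the markers, held Kit in 27 cells, 8.01% (5.35% to 11.4%), with a highest of 55.3 TPM. Of the 16 of them at a TPM of 10 or more, 14 also had Corin and 15 had Vcan at that level, both genes of the dermal papilla. None of the 16 had Dct, Tyrp1, Pmel, Mlana, Sox10, Trpm1 or Gpr143 at a TPM of 10, while 8 of them had Mitf at that level. Over all dermal papilla cells, Mitf was at that level in 27.3% and each of the others in at most 0.890%. Shares of Corin and Vcan over all dermal papilla cells were not taken. None of the 16 had Cpa3, which marks mast cells, at a TPM of 10.

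Sox10 was seen in 18.8% of P30 hair bulb cells (72 cells, 14.97% to 23.02%), with a lowest and a median TPM of 0 and a highest of 252.2. It was seen in 1 P21 hair germ cell, 2 P25-P27 matrix cells and 1 dermal papilla cell. Mitf was ordered differently over the types from the other 9 genes. It was seen in 36.7% of P30 hair bulb cells (31.9% to 41.8%), against 92.3% of P21 bulge cells (36 of 39, 79.1% to 98.4%), 49.3% of P21 hair germ cells, 39.3% of Ana1 hair germ cells, 44.2% of P25-P27 matrix cells and 51.3% of dermal papilla cells. Its mean was 7.10 TPM in P30 hair bulb cells, against 39.7 in P21 bulge, 14.1 in P21 hair germ, 5.26 in Ana1 hair germ, 8.84 in P25-P27 matrix and 10.8 in dermal papilla cells. In P21 bulge cells the lowest Mitf value was 0, the median 30.1 and the highest 123.6 TPM. In the same 39 cells the summed TPM of the 8 genes other than Tyr and Mitf was listed at 0 in 36 cells and did not pass 1.49. Within the hair bulb, by contrast, the highest Mitf value was 266.4 TPM, in a cell that held all 10 genes.

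Differences between types were taken on the log2(TPM + 1) scale, which understates differences of low genes. All 10 genes passed the filter for these comparisons (seen in 10 or more cells of the 2 types), which the hair bulb cells alone were enough to meet. From P30 hair bulb minus P25-P27 matrix, Dct differed by 3.26, Mlana by 2.46, Trpm1 by 2.40, Pmel by 1.91, Tyrp1 by 1.84, Tyr by 1.48 and Kit by 1.40, while Sox10 differed by 0.63, Gpr143 by 0.50 and Mitf by -0.38. So 7 of the 10 were higher by 1 or more, as were 5.96% of the 18545 genes compared, and 0 of the 10 were lower by 1 or more, as were 3.03% of those genes. The median difference was 1.66 over the 10 genes, against 0.12 over all genes compared. From P30 hair bulb minus P30 dermal papilla the same 7 genes were higher by 1 or more, with differences of 3.47 for Dct, 2.43 for Mlana, 2.41 for Trpm1, 1.95 for Pmel, 1.77 for Tyrp1, 1.19 for Tyr and 1.11 for Kit. In that comparison 15.3% of 19588 genes were higher by 1 or more and 5.57% lower by 1 or more, against 0 of the 10 genes lower. The median was 1.48 over the 10 genes and 0.11 over all genes, and Mitf differed by -0.62. The 2 comparisons share the hair bulb cells.

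Each hair bulb plate taken alone gave the same sign for every gene against the P25-P27 matrix, from 2.76 to 4.27 for Dct and from -0.54 to -0.15 for Mitf. With ribosomal RNA, mitochondrial and spike-in rows left out and each cell rescaled to the same total, 8 of the 10 genes were higher by 1 or more in P30 hair bulb cells than in the P25-P27 matrix, and 8 also than in the dermal papilla. The share of all genes past that mark then became 20.9% and 29.2%, and the median over all genes moved to 0.33 and 0.27. The difference of Mitf kept its sign on that scale, at -0.39 against the P25-P27 matrix and -0.80 against the dermal papilla.

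The 5 hair bulb plates did not hold the genes at equal levels. Mean TPM of Pmel was 116.98 on plate P1-3, 51.6 on P1-4, 62.1 on P1-5, 26.1 on P1-6 and 261.4 on P2-1. Mlana stood at 59.4, 57.6, 53.04, 27.4 and 154.5 TPM on the same plates in that order. Plate P2-1 was the highest of the 5 for 8 of the 10 genes, and its mean was 1.82-fold (Mitf) to 4.07-fold (Pmel) the mean of the other plates for these 8. The exceptions were Sox10, highest on P1-3 at 6.99 TPM against 4.18 TPM on P2-1, and Kit, highest on P1-5 at 14.1 TPM and at 10.1 TPM on P2-1. The Sox10 mean of P1-3 rests on 1 cell at 252.2 TPM, without which it was 3.72 TPM and below that of P2-1. Plate P2-1 also had the most genes seen, a median of 8082, against 6901 to 7420.5 on the other plates, and its part in the difference was not tested. Shares of cells varied less than means: Pmel was seen in 30.8% to 55.6% and Mlana in 37.2% to 60.5% of the cells of a plate. Without plate P2-1 the mean over the remaining cells was 64.4 TPM for Pmel, 39.997 for Tyrp1, 48.03 for Dct, 2.80 for Gpr143 and 11.8 for Kit.

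The genes were seen together. Of the P30 hair bulb cells, 41.4% (36.4% to 46.5%) held 5 or more of the 10 genes, and 21 cells held all 10, against 35 cells with none. The number of genes seen had separate peaks at 2 genes (58 cells), 7 genes (41 cells) and all 10, with 22 cells at 5 genes, as the plot of genes seen per cell shows. On the plates, 38.2% of cells held 5 or more on P1-3, 35.9% on P1-4, 41.3% on P1-5, 35.1% on P1-6 and 55.6% on P2-1. In the other types 1 P25-P27 matrix cell and 1 dermal papilla cell held 5 genes, and no P21 bulge, P21 hair germ or Ana1 hair germ cell held more than 3.

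**Figure D2:**
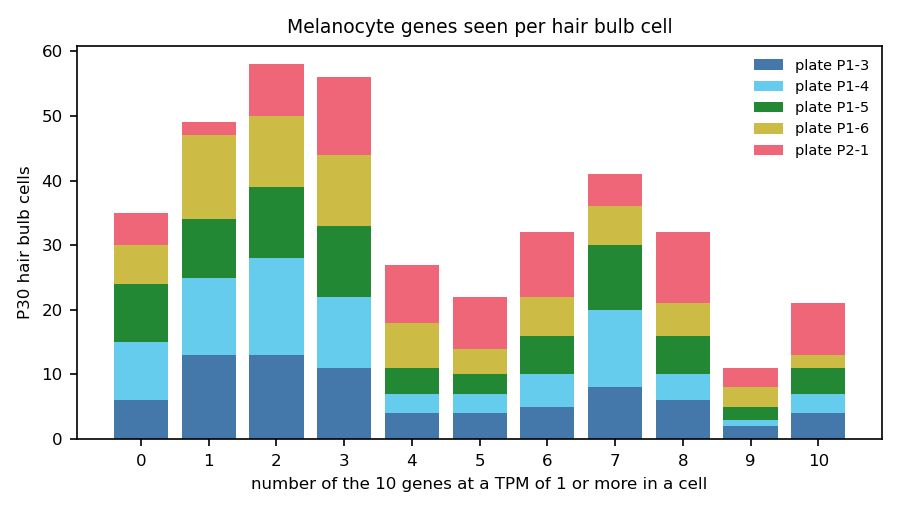
Number of P30 hair bulb cells (vertical axis) by how many of the 10 genes were at a TPM of 1 or more, with the 5 plates stacked in colour. The counts peak at 2, 7 and 10 genes, and all 5 plates contribute to the 21 cells with all 10 genes.

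A ranking by the summed TPM of the 10 genes, made after the values had been seen, gave 10 cells with a sum of 4721 to 18643 TPM, and the next cell stood at 2156 TPM. Every one of the 10 cells held all 10 genes. They were 2 cells on P1-3, 2 on P1-4, 1 on P1-5 and 5 on P2-1, with none on P1-6. In the highest cell, on P2-1, Pmel stood at 6293, Dct at 3801, Tyrp1 at 3647, Mlana at 2049, Trpm1 at 1044, Tyr at 1037, Gpr143 at 290.8, Kit at 187.5, Mitf at 186.5 and Sox10 at 106.2 TPM. Below the 10 cells, 8 cells had sums of 1216 to 2156 TPM. A further 27.1% of the hair bulb cells had sums between 100 and 1000 TPM (101.4 to 946), and 48.2% had sums between 10 and 100 TPM (10.3 to 99.5). The sums of 53 cells lay between 0.110 and 9.93 TPM, and 24 cells were listed at 0 for every gene.

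The 10 cells carried 65.5% of the summed TPM of the 10 genes over all hair bulb cells. For single genes that part was 81.1% of Pmel, 76.6% of Tyrp1, 71.4% of Gpr143, 69% of Tyr, 62.7% of Dct, 58.5% of Mlana, 44.97% of Mitf, 42.5% of Trpm1, 33.1% of Sox10 and 23.6% of Kit. The mean TPM over the other cells was 20.5 for Pmel, 28.05 for Dct, 30.6 for Mlana, 25.4 for Trpm1 and 8.96 for Kit. The genes Dct, Mlana and Trpm1 thus kept means above 25 TPM outside the 10 cells.

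**Figure D3:**
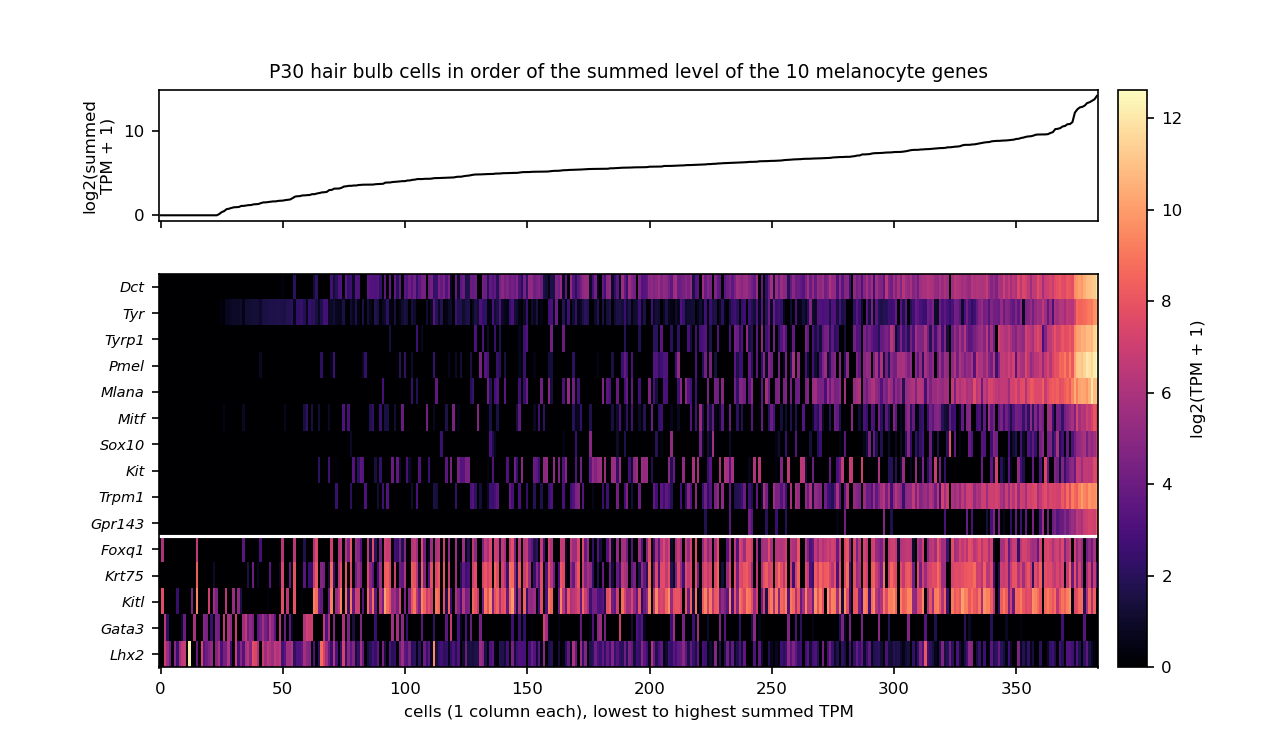
P30 hair bulb cells in order of the summed TPM of the 10 genes (top, log2 scale), with log2(TPM + 1) of each gene per cell below and 5 genes of the surrounding epithelium under the white line, picked for display after their values had been seen. The sum climbs gently and then steps up at the 10 highest cells, where all 10 genes are bright.

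The make-up of the sum differed between the 10 highest cells and the cells with a sum of 100 to 1000 TPM. Pmel took a median of 34.01% of the sum in the 10 cells (23.9% to 41.2%), against 11.3% in the cells with the lower sums. Tyrp1 took 17.3%, against 7.64%. Trpm1 took 6.82% (4.96% to 13.7%), against 18.1%, and Mlana took 14.2%, against 21.4%, while Dct stood at 17.2% and 17.3%. Among cells with Pmel at a TPM of 10 or more, Mlana was above Pmel in 2 of the 10 highest cells, against 51 of the 75 cells with a sum of 100 to 1000 TPM. Trpm1 was above Pmel in 0 of the 10 and in 42 of the 75. The bands were set by these same genes, so the shares are a description. The 8 cells between the bands were intermediate for Pmel, with a median share of 21.9%.

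Cells with high sums were not all alike in their keratinocyte transcripts. Of the 12 keratinocyte genes looked at, among them Krt5, Krt17 and Trp63, the highest cell had none at a TPM of 10 or more, with a sum of 15.8 TPM, and the single one of the 10 cells on P1-5 had 2. The other 8 cells had 6 to 9 of the 12 at that level, with sums of 205.1 to 1019 TPM. They also held Foxq1 (15.97 to 128.3 TPM) and Kitl (57.3 to 439 TPM), which encode a transcription factor of the hair medulla and Kit ligand. In the highest cell both were listed at 0, and in the cell on P1-5 Foxq1 was listed at 0 and Kitl stood at 3.03 TPM. The median number of genes seen was 8838 in the 10 cells, against 7281.5 in the cells with a sum of 100 to 1000 TPM. Whether a well held more than 1 cell was not tested.

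Outside the 10 highest cells, the share of cells with 5 or more of the genes differed with the epithelial genes that a cell held. Of these other cells, 55.3% had Foxq1 at a TPM of 10 or more and held 5 or more of the genes in 62.8% (55.8% to 69.4%), against 11.4% of cells with less Foxq1 (6.99% to 17.2%). For Krt75, a keratin of the companion layer and medulla, the shares were 60.6% (53.7% to 67.1%) and 10.9% (6.48% to 16.9%), and for Kitl 51.9% (45.7% to 58.02%) and 10.2% (5.20% to 17.5%). Matrix and general keratinocyte genes split the cells as well: the shares were 61.1% and 10.8% for Prdm1, 53.7% and 9.40% for Hoxc13, 45.5% and 12.5% for Dlx3, and 44.7% and 12.5% for Krt17. On single plates the share in Foxq1 cells lay between 59.5% and 67.6%, and in cells with less Foxq1 between 3.13% and 20%. Cells with Gata3, a transcription factor of the inner root sheath, held 5 or more in 2 of 62, 3.23%, against 47.1% of the rest. Cells with Lgr5, a gene of stem and progenitor cells, held 5 or more in 2 of 48, 4.17%, against 45.1% of the rest. For Krt15 the shares were 12% (9 of 75) and 46.8%, and for Krt71, an inner root sheath keratin, 15% (3 of 20) and 41.2%. Not all inner root sheath keratins followed Gata3, with shares of 46.8% and 36.4% for Krt27 and of 44.9% and 35.2% for Krt28. Among genes with at least 20 cells on each side of 10 TPM, the share was higher in cells with the gene for 8 of 12 inner root sheath, medulla and shaft genes, 8 of 10 matrix genes and 6 of 11 keratinocyte genes. The median number of genes seen was 7393 in Foxq1 cells and 7285.5 in Gata3 cells. These shares rest on cells of the same plates and have no test.

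Pair by pair, over all hair bulb cells, the 6 genes Dct, Tyr, Tyrp1, Pmel, Mlana and Trpm1 had a median Pearson r of 0.785 in their 15 pairs (0.661 to 0.886). The closest pairs were Mlana with Trpm1, at r = 0.89, and Tyrp1 with Pmel, at r = 0.87. Of the cells with Mlana at a TPM of 10 or more, which were 37.2% of the hair bulb cells, 79.02% had Trpm1 at that level too, and these were 84.96% of the Trpm1 cells. Without the 10 highest cells the median r of the 15 pairs was 0.690, and Mlana with Trpm1 stood at 0.86. Within single plates the r of these 15 pairs ran from 0.520 to 0.948. In the cells with fewer than 5 of the genes the median r of the 15 pairs was 0.198, and that of Mlana with Trpm1 was 0.52. That cut, like the cut at the 10 highest cells, was set by these same genes, so a lower r is partly built in. These correlations are across cells that share plates and depth, and they carry no p.

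Apart from Kit, r with the other genes was lowest for Mitf, Sox10 and Gpr143. Gpr143 and Sox10 were also the rarest, seen in 11.5% and 18.8% of hair bulb cells, and the part of this in r was not tested. Of the 29 hair bulb cells with Gpr143 at a TPM of 10 or more, 100% had Dct and Mlana at that level. Tyr, Tyrp1, Pmel and Trpm1 were at that level in 86.2% to 96.6% of them, Mitf in 75.9%, Kit in 58.6% and Sox10 in 51.7%. In reverse, 20.3% of the cells with Mlana at that level had Gpr143. Against the mean log2 level of the other 9 genes, r was 0.895 for Tyrp1, 0.881 for Pmel, 0.865 for Mlana, 0.848 for Trpm1, 0.838 for Tyr and 0.779 for Dct, and then 0.724 for Gpr143, 0.700 for Mitf and 0.640 for Sox10. Without the 10 highest cells these 3 stood at 0.544, 0.586 and 0.479 in that order. Kit stood apart at 0.225, and at 0.00837 without the 10 highest cells. Plates differed in this: within single plates the r of the 9 pairs with Kit ran from -0.0486 to 0.630.

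**Figure D4:**
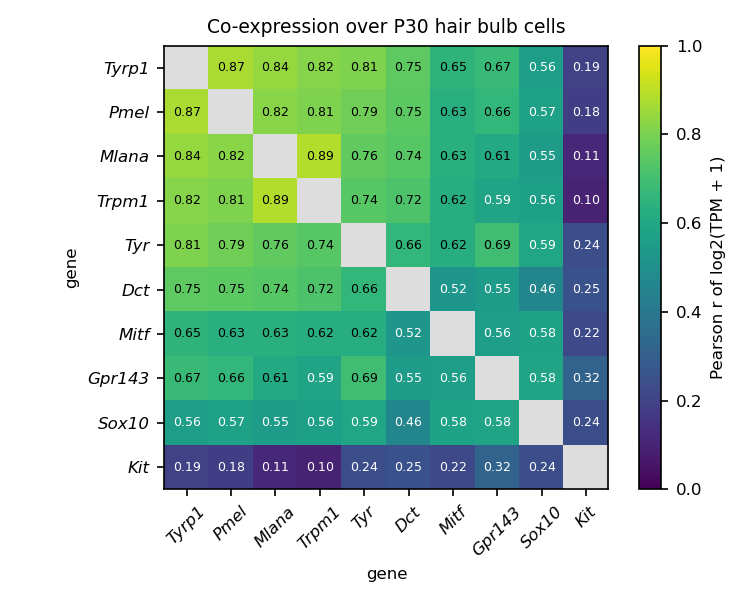
Pearson r of log2(TPM + 1) over the P30 hair bulb cells for each pair of the 10 genes, with the r written in each square. The first 6 genes form a block with r of 0.66 to 0.89, and the row of Kit lies between 0.10 and 0.32.

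Kit was also found in cells without Mlana. Of the 84 hair bulb cells with Kit at a TPM of 10 or more, 32 had Mlana at that level and 52 did not. The share with Mlana was thus 38.1%, near the 37.2% of all hair bulb cells. Mlana without Kit was found in 28.9% of the hair bulb cells. In 30 of the 84 cells none of the other 9 genes reached a TPM of 10, while 52 of the 84 had Dct at that level. This was 61.9%, near the 59.1% of all hair bulb cells with Dct at that level. For Dct itself, 51 cells had it at 10 or more with the other 9 genes under 10. The 52 cells with Kit and without Mlana had Mki67, a gene of dividing cells, at a TPM of 10 or more in 90.4% (78.97% to 96.8%), Krt25, an inner root sheath keratin, in 88.5%, Cdh6 in 63.5%, Myb in 57.7% and Shh in 21.2%. The cells with Mlana and without Kit had Mki67 in 14.4% (8.47% to 22.4%), Krt25 in 29.7%, Cdh6 in 5.41% and Shh in 0%, for which the limit of 3 cells allows a share of up to 2.70%. Foxq1 was at that level in 11.5% of the 52 cells, against 89.2% of the cells with Mlana and without Kit, and Krt75 in 25%, against 90.1%. The 32 cells with both had Foxq1 in 81.3% and Mki67 in 15.6%. Cells with neither at a TPM of 10 or more were 49.2% of the hair bulb cells. These had Mki67 in 32.8%, Krt25 in 24.3%, Foxq1 in 44.4% and Krt75 in 46.03%. Cdh6 and Myb were picked for their r with Kit over these same cells, so their shares follow in part from that choice. Of the 10 cells with the highest sum all had Kit, at 14.6 to 187.95 TPM.

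**Figure D5:**
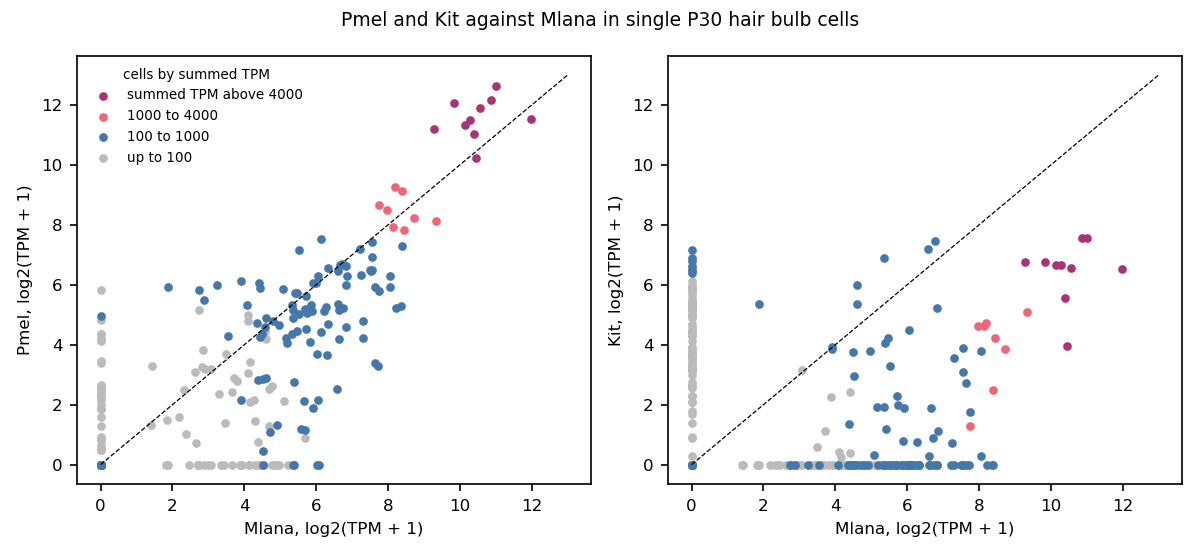
Pmel (left) and Kit (right) against Mlana, log2(TPM + 1), for the P30 hair bulb cells, coloured by the summed TPM of the 10 genes, with the line of equal TPM dashed. Of the 10 cells with a sum above 4000 TPM, 8 lie above the line for Pmel and all lie under it for Kit, and 52 cells hold Kit at a TPM of 10 or more with Mlana under 10.

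The 3 genes closest to Kit over the hair bulb cells were Cdh6 (r = 0.57), Robo1 (r = 0.51) and Myb (r = 0.51), none of which was among the 3 closest to any other of the 10 genes. For Cdh6 and Myb r was higher without the 10 highest cells, at 0.62 and 0.57. Of the cells with a sum under 4000 TPM, those with Cdh6 at a TPM of 10 or more had Kit at that level in 68.5% and 5 or more of the genes in 16.7%. Cdh6 was picked for its r with Kit over these same cells, so its share with Kit follows in part from that choice. One of the 32 cells with both Kit and Mlana, on P1-6, carried mast cell transcripts, with Kit at 117.8, Cma1 at 2396, Mcpt4 at 1870 and Cpa3 at 1060 TPM, and Mlana at 40.2 TPM. Cpa3 was seen in 1 other hair bulb cell, at 4.99 TPM.

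Sox10 was not always found with the other genes. Of the 30 hair bulb cells with Sox10 at a TPM of 10 or more, 25 had Mlana at that level. In the other 5 cells Mlana, Pmel and Gpr143 were listed at 0, and Sox10 stood at 252.2, 53.3 and 37.6 TPM in 3 cells on P1-3, at 29.4 TPM in 1 cell on P1-4 and at 17.9 TPM in 1 cell on P1-5. The cell at 252.2 TPM held the highest Sox10 value of all, with Mitf at 14.5 and Tyr at 3.82 TPM, and its Dct, Tyrp1, Kit and Trpm1 were listed at 0 as well.

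Of 17397 other genes seen in at least 10 hair bulb cells, 68 had an r of 0.5 or more with the mean log2 level of the 10 genes, 0.391%. None of the 10 genes is counted there. Highest was Ptgds (r = 0.86), which encodes a prostaglandin D synthase, then Slc45a2 (0.86), Oca2 (0.83) and Slc24a5 (0.83), transporters of the melanosome that are mutated in forms of albinism or dilution. They were followed by Ednrb (0.82) and Mc1r (0.80), the receptors for endothelins and melanocortins, and by Npy (0.78), Kif26b (0.77), Bace2 (0.77), Mlph (0.76), Atp6v0d2 (0.74), Gsta1 (0.71), Pax3 (0.70), Mgll (0.70) and Slc24a4 (0.69). Pax3 is a transcription factor upstream of Mitf, and Mlph carries melanosomes along actin with Rab27a and Myo5a. Without plate P2-1, 43 genes had an r of 0.5 or more and 14 of these 15 remained among the 15 highest, and without the 10 highest cells the numbers were 25 and 13.

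Ptgds was the gene closest to Dct, Tyrp1, Pmel, Mlana and Trpm1 taken singly, with r of 0.72 to 0.86. It stood at 1935 to 6397 TPM in the 10 highest cells, at a median of 76.9 TPM in the cells with a sum of 100 to 1000 TPM, and at a median of 0 in the cells with a sum of 10 to 100 TPM. Oca2 was closest to Tyr (r = 0.80), Ednrb to Mitf (0.62), and Slc45a2 to Sox10 (0.62) and to Gpr143 (0.74). Dct had Slc7a5 (0.68) and Gpnmb (0.67) next after Ptgds. Gpnmb, a melanosome protein gene, was widespread, with a mean of 800 TPM in the cells with 5 or more of the 10 genes and of 300.7 TPM in the other cells.

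Of 19 further genes known from pigment cells, 18 were seen in at least 10 hair bulb cells, and 8 of these had an r of 0.5 or more with the mean of the 10 genes. These were Slc45a2, Oca2, Slc24a5, Ednrb, Mc1r, Pax3, Mcoln3 (0.69) and Gpnmb (0.51). The others included Erbb3 at 0.20, Tfap2b at -0.09 and Slc7a11 at -0.10, and the median of the 18 was 0.38. Of 21 genes of melanosome building and transport, 3 had an r of 0.5 or more, Mlph, Rab27a (0.66) and Rab38 (0.64), and the median was 0.16. Myo5a, the motor of melanosome transport, was seen in 93.5% of the hair bulb cells and stood at 43.3 TPM on average in the cells with 5 or more of the 10 genes, against 22.8 TPM in the others.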

How the data were processed

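Smart-seq2 libraries of 1119 single cells, 384 of them P30 hair bulb, 337 dermal papilla and 199 P25-P27 matrix cells, were aligned with Bowtie2 2.2.9 and quantified with RSEM 1.2.30 on mm10, per the submitters' processing notes, and the authors deposited TPM in 3 tables, which keep no depth. In the table of dermal papilla cells the deposited values are separated by a 2-character mark. The gene annotation is not given in the sources used here, and 83 symbols lie on several rows, none of them a gene of the list.

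Each sample is 1 cell, so a type counts as 1 sample: means, shares with 95% Clopper-Pearson intervals, differences of mean log2(TPM + 1) and correlations across cells are given without tests. The computations used Python 3.11.15, numpy 2.4.6, pandas 2.3.3 and scipy 1.17.1 and were tested on simulated data. Genes compared were seen in at least 10 cells, leaving out 314 rows of mitochondrial genes, ribosomal RNA and spike-ins. Named are the 10 genes, the 15 genes most like their mean, the 3 most like each, predicted models left out, and up to 4 genes of each of 13 marker lists with the highest mean where 5 or more of the 10 were seen. Other genes named, and the bands of summed TPM, were chosen after their values were seen. The genes and lists were chosen with earlier results of these data known. Doublets were not called. Alternatives were another mark for a seen gene, another pseudocount, a filter on cells, rescaling, other measures of likeness and leaving out each plate. Some marker genes are not reported here.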

Additional observations from a re-analysis of the deposited data

Results flagged for a closer look

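Within a type of 4 or 5 plates, the values below belonged to a plate that stood far from the others by a gap test. Chance alone passes it in about 1 of 20 groups only where values are independent and normally spread. In all, 40 groups of plate values were looked at and 12 passed. In P30 hair bulb cells plate P2-1 was high for Dct, seen in 91.4% of its cells against 66.7% to 73.7% on the other plates, and for Trpm1, seen in 70.4% against 43.6% to 47.3%. Its mean of Trpm1 was 73.1 TPM against 25.5 to 38.9 TPM, and its mean of Mlana 154.5 TPM against 27.4 to 59.4 TPM. Gpr143 stood at a mean of 11.02 TPM on P2-1 against 1.31 to 4.10 TPM, and was seen in 19.8% of cells against 8.11% to 10.3%.

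In dermal papilla cells Kit was seen in 16.1% of the cells of plate DP3, against 3.90% to 5.81% on the other plates. On the same plate Gpr143 had a mean of 0.360 TPM against 0 to 0.0394 TPM, and Tyr a mean of 1.10 TPM against 0.904 to 0.918 TPM. Sox10 had a mean of 0.0123 TPM on plate DP5, where it was seen in 1.16% of cells, and was listed at 0 on the other plates. Trpm1 was seen in 0% of the cells of plate DP2, against up to 2.60% elsewhere. The values of Sox10, Trpm1 and Gpr143 rest on 0 to 2 cells of a plate, of which 1 cell on DP3 held Gpr143 at 28.8 TPM, whereas Tyr was seen in 40 cells of DP3.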

How the results depend on the processing

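Leaving out each plate in turn, 9 genes kept their highest mean in the hair bulb and 7 stayed higher by 1 or more in both comparisons. The median share of cells with a gene lay between 37.5% and 43.1%, the cells with 5 or more genes made up 37.6% to 42.9%, the median log2 level lay between 1.75 and 1.98, the median pairwise r between 0.572 and 0.643, and the genes at an r of 0.5 or more numbered 43 to 80.

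A TPM of 10 as the mark gave a median share of 23.96%, against 40.9% at a TPM of 1, and 21.9% of cells with 5 or more genes, against 41.4%. A mark of 3 or more genes gave 63.02% of cells and one of 7 or more gave 27.3%. The median log2 level over the 10 genes, 1.90 as reported, was 2.88 after rescaling and -0.0189 with a pseudocount of 0.1. The median pairwise r, 0.621 as reported, was 0.524 as Spearman rho, 0.0216 without the cells with 5 or more genes and 0.477 without the 10 highest cells, a setting added after the data had been seen. The cells left out were picked by these same genes, so a lower r without them is partly built in. Genes at 0.5 or more, 68 as reported, numbered 41 by Spearman rho and 25 without the 10 highest cells. The mean of Sox10 on plate P1-3, 6.99 TPM, was 3.72 TPM without its highest cell, also added later. The causes were not tested. No sign of a difference of 1 or more turned round. After rescaling, 5 dermal papilla cells held nothing.

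No paired analysis was possible because replicate numbers were given in accession order and each type counts as 1 sample. TPM keeps no depth, so a gene listed at 0 in a cell is not shown to be absent.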

Other observations

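The genes most opposed to the mean log2 level of the 10 genes over hair bulb cells were Nfib (r = -0.40), Cmah (-0.40), Fgfr3 (-0.36), Nfix (-0.36) and Slc6a6 (-0.36). Nfib and Nfix encode nuclear factor I transcription factors. Without the 10 highest cells the values were -0.46, -0.44, -0.40, -0.39 and -0.39 in the same order.

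Of the 5 genes of melanocyte niche signals that were found, Kitl had an r of 0.40 with the mean of the 10 genes, and 0.48 without the 10 highest cells. It stood at 324.1 TPM on average in the cells with 5 or more of the 10 genes, against 118.5 TPM in the other cells. Edn3, which encodes an endothelin, stood at 1.89 against 9.10 TPM, with an r of -0.06, Edn1 at 0.0475 against 0.857 TPM and Pomc at 0.0398 against 0.0230 TPM. In the 17 inner root sheath, medulla and shaft genes r ran from -0.30 (Gata3) to 0.41 (Foxq1), with Krt75 at 150 TPM against 58.7 TPM, Padi3 at 122.8 against 58.7 and Tchh at 102.8 against 46.6. In the 12 keratinocyte genes it ran from -0.31 to 0.16, with Krt17 at 274.6 against 212.4 TPM, Perp at 109.1 against 110, Trp63 at 63.4 against 76.7 and Dsp at 52.8 against 38.4. In the 12 matrix genes it ran from -0.31 to 0.36, with Dlx3 at 76.7 against 71.1 TPM, Lef1 at 71.4 against 62.9, Prdm1 at 60.1 against 36.1 and Hoxc13 at 48.1 against 25.8.

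Genes of cells outside the epithelium differed in how often they were seen. Dcn was seen in 26.8%, Vcan in 23.2% and Cldn5 in 0% of hair bulb cells. Of 10 dermal papilla genes 5 were seen in at least 10 hair bulb cells, with a median r of -0.09, among them Crabp1 at 5.11 against 8.19 TPM and Vcan at 0.449 against 4.54. Of 6 fibroblast genes 5 were, with a median r of -0.03 and Col3a1 at 35.5 against 45.2 TPM. Of 6 endothelial, 7 leukocyte and 7 mast cell genes 1, 2 and 1 were. The single mast cell gene was Tpsb2 (r = 0.34), seen in 9.43% of the cells with 5 or more genes. Of 8 Schwann cell genes 6 were, with a median r of 0.22.

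In wells beside the 10 highest cells, 27 of 48 cells (56.3%) held 5 or more of the genes, against 37.4% of cells elsewhere, the 10 cells themselves left out. On the plates the shares were 58.3% against 32.3% on P1-3, 50% against 31.8% on P1-4, 57.1% against 38.8% on P1-5 and 57.9% against 50.9% on P2-1. Plate P1-6, with none of the 10 cells, had 35.1%. The difference was not tested.

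Of the 2 cells outside the hair bulb with 5 of the genes, the P25-P27 matrix cell held Pmel at 25.8, Mitf at 21.8, Dct at 19.1, Tyrp1 at 4.20 and Tyr at 3.91 TPM with Krt14 at 418 TPM. The dermal papilla cell held Trpm1 at 11.3, Mitf at 9.66, Dct at 8.62, Tyr at 2.45 and Tyrp1 at 2 TPM with Corin at 723 TPM. It also held Ptprc, a leukocyte gene, at 80.8 TPM.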
